A study of Mus musculus with 150 samples.

Results

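Ldb1 and Ldb2 encode the LIM-domain-binding proteins of the mouse, and Lmo1, Lmo2, Lmo3 and Lmo4 encode the LIM-only proteins. These 6 genes, of 54082 in the table, were chosen by family name, together with the question of how their levels differ between neurons with high and low Nefh, between neuron types, between skin types and between postnatal days 4 and 5. The cells were 150 single somatosensory neurons of CD1 mice from Charles River, with 1 cell per sample, sequenced by Smart-seq, which copies whole polyA transcripts of a cell. By label, 45 neurons innervated hairy skin, 1 both skin types and all others glabrous (hairless) skin. There were 33 cells of day 4, from 2 litters (K and P_Q), and all others were of day 5, from 8 litters. No treatment or mutation is given for any group, the sources used here do not give how a neuron was assigned to its skin, and litter names that join letters were each taken as 1 litter. The cells were on 2 plates and in 5 cDNA batches.

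LIM-homeodomain transcription factors such as Isl1 and Isl2 carry a pair of LIM domains, and Ldb proteins bind those domains and dimerise, which joins factors into larger complexes on DNA. Lmo proteins are made of LIM domains without a homeodomain. They bind Ldb proteins too, so they can compete with LIM-homeodomain factors or bridge Ldb to other DNA-binding proteins such as bHLH and GATA factors. Ssbp proteins protect Ldb from turnover, and the ubiquitin ligase Rlim marks it for degradation. In sensory ganglia Isl1 is needed for the formation of several neuron types.

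In mm10, with the GENCODE annotation, Ldb1 lies at chr19:46031570-46045214, Ldb2 at chr5:44472132-44799680, Lmo1 at chr7:109138572-109175207, Lmo2 at chr2:103957986-103981878, Lmo3 at chr6:138362918-138581968 and Lmo4 at chr3:144188530-144205220. RefSeq start-site windows of build GRCm38.p6, from 250 bases before to 50 after the start, were matched by symbol for 4 of the 6 genes: Ldb1, Lmo1, Lmo3 and Lmo4. The first windows of a broadly detected member (Ldb1), of Lmo1 and of the member with the narrowest detection (Lmo3) are shown to compare their base composition. They lie at chr19:46045262-46045561, chr7:109175158-109175457 and chr6:138581919-138582218, all on the minus strand, and are read 5′ to 3′. Capitals mark TAATTA, a core bound by LIM-homeodomain proteins, and AGATAA, a core bound by GATA factors, both searched on both strands.
Ldb1: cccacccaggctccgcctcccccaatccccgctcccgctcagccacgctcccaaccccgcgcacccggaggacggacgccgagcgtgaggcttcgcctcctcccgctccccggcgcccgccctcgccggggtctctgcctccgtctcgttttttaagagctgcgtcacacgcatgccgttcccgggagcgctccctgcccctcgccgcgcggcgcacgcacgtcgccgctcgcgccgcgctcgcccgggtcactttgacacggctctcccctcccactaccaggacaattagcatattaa
Lmo1: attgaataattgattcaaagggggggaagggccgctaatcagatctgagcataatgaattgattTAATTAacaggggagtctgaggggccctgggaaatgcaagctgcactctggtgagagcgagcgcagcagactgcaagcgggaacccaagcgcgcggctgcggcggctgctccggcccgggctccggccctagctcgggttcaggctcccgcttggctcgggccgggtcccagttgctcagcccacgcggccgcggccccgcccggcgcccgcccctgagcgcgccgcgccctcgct
Lmo3: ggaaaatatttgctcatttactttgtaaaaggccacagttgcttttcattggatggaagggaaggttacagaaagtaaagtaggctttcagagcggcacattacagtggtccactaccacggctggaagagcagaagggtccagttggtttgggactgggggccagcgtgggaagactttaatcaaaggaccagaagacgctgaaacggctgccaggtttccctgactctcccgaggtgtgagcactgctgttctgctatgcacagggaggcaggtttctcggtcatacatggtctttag
The Ldb1 window held 41 CG dinucleotides, the Lmo1 window 29 and the Lmo3 window 7, the same as the median of 7 over 32851 windows of 27025 genes. The first Lmo4 window held 52. A TAATTA was found in the Lmo1 window and in 5.29% of all windows, and an AGATAA in 11.2% of all windows but in none of the 3 shown. Ldb1 has further windows that are not shown: the second held 23 CG dinucleotides, and the third held 5 and 2 AGATAA. A match describes these letters and is not a measured binding site.

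The median library held 734269 counts, the smallest 395811 and the largest 1053854. Levels are in CPM, counts scaled to a common library total of 1000000. Cells below 500 CPM of Nefh, the heavy neurofilament of large myelinated neurons, are called Nefh-low (46 cells), and all others Nefh-high. The nearest cells were at 377 CPM below and 623 CPM above that value. Detected genes had a median of 14356.5 in Nefh-high and 13253 in Nefh-low cells, and 5 of the 6 cells under 10000 genes were Nefh-low. All 6 neuron markers (Tubb3, Prph, Isl1, Pou4f1, Snap25 and Rbfox3) were detected at the median of both classes, but their summed level in 17 Nefh-low cells lay below the lowest Nefh-high cell (4617 CPM), and it ran down to 53.6 CPM. The 6 myelinating Schwann cell markers summed to a median of 1362 CPM in Nefh-high (range 48.6 to 9197) and 4272 CPM in Nefh-low cells (258 to 38518), with 1 of the 6 at a median of 0 in each class. Some class differences below are also given without the cells poor in neuron markers. The type, skin and age values include those cells.

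Nefh-low neurons used mainly Ldb2 and Nefh-high neurons mainly Ldb1. Ldb2 was the member that set the classes apart, whereas Ldb1 differed little between them, and Lmo3 and, less uniformly, Lmo2 were on the Nefh-high side. The contrast is named in the rule that chose the members, so the values are a description with no test.

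Counts were summed per litter and class and scaled to CPM, with 10 litters holding Nefh-high and 9 holding Nefh-low cells. In Nefh-low sums Ldb2 had its lowest value at 178.8 CPM (litter I), its median at 414.0 (litter O) and its highest at 690.2 (litter K, a single cell). In Nefh-high sums it ran from 0.758 CPM (litter L) to 50.2 (litter M), both litters with 2 such cells. The class means were 398.9 ± 142.2 CPM (SD, n = 9) in Nefh-low and 15.2 ± 14.7 CPM (SD, n = 10) in Nefh-high neurons, and the sums of the classes did not overlap. Within litters, Ldb2 was lower in Nefh-high cells by a log2(CPM + 1) difference of -5.16 ± 1.73 (SD, 9 litters), in 9 of 9 litters. Among 15601 genes, 3.88% were lower in every litter, and Ldb2 had the largest mean difference of them in that direction. Fewer expressing cells and less RNA per cell cannot be told apart in such sums, which is why single cells are given next.

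Of the Nefh-high cells, 36 had no Ldb2 count, and the highest stood at 91.8 CPM. Of 46 Nefh-low cells, 35 had at least 100 CPM of Ldb2 and 5 had none. If cells were independent, a count of 0 Nefh-high cells over 100 CPM would allow a share of up to 2.88%. The cells share litters, and the limit covers counting error only. Ldb1 was counted in every Nefh-high cell and in 43 of 46 Nefh-low cells. Compared per cell in CPM, Ldb2 exceeded Ldb1 in 9 Nefh-high cells and 39 of 46 Nefh-low cells. Since the exons of Ldb1 cover 4606 bases and those of Ldb2 3336, the same count was made per kilobase, and gave 13 Nefh-high cells and 40 of 46 Nefh-low cells.

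**Figure D1:**
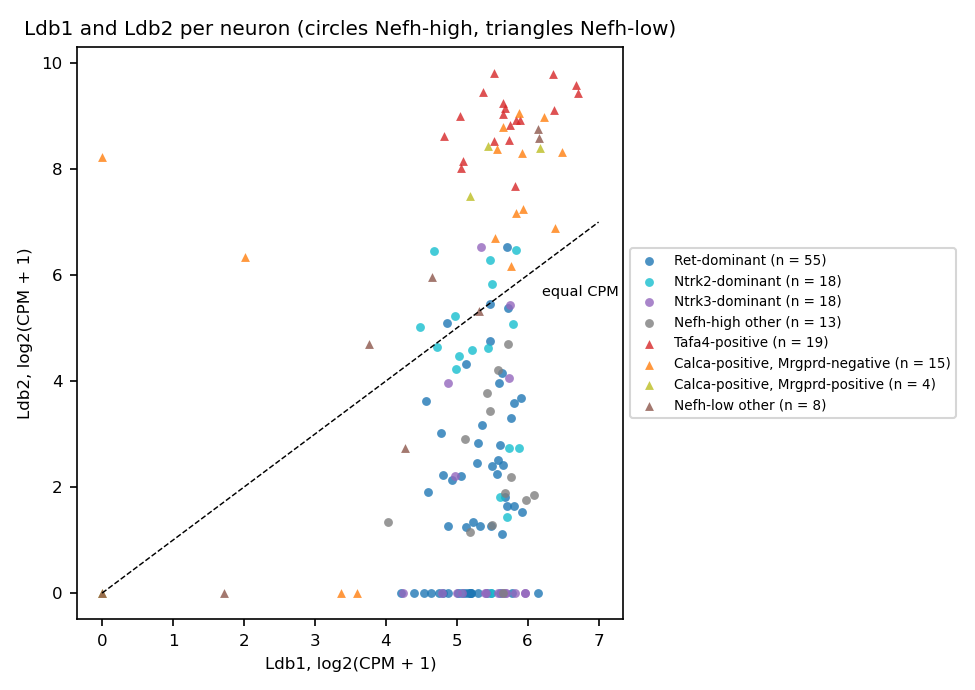
Each point is 1 neuron; the x axis is Ldb1 and the y axis Ldb2, both as log2(CPM + 1), circles are Nefh-high and triangles Nefh-low cells, colours give the type, and the dashed line is equal CPM. Nefh-low cells lie mostly above the line (39 of 46) and Nefh-high cells mostly below it (95 cells), while Ldb1 spans a narrow range in most cells, apart from a few Nefh-low cells at or near 0.

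Ldb1, the widely expressed cofactor, had 41.5 ± 5.82 CPM in Nefh-high (SD, n = 10) and 56.9 ± 22.3 CPM in Nefh-low sums (SD, n = 9). Its sums overlapped, with a within-litter difference of -0.37 ± 0.61, lower in Nefh-high cells in 6 of 9 litters. The log2 ratio of Ldb2 to Ldb1 was 2.79 ± 0.19 in Nefh-low and -1.99 ± 1.63 in Nefh-high sums, a difference of -4.78 ± 1.68 (SD, 9 litters). The Nefh-low ratio hardly varied between litters (2.49 to 3.00), although Ldb1 varied 3.33-fold and Ldb2 3.86-fold there. Per kilobase of exon, Ldb2 stood at 119.6 ± 42.6 CPM in Nefh-low and 4.56 ± 4.40 in Nefh-high sums, and Ldb1 at 12.4 ± 4.84 and 9.01 ± 1.26.

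Without the 17 Nefh-low cells poor in neuron markers, a comparison added after the values were seen, the Ldb2 difference was -5.38 and that of the ratio -4.92. Those 17 cells had a median of 80.4 CPM of Ldb2, against 432.2 CPM in the other 29. The 6 Nefh-low cells whose Schwann markers lay at or below the Nefh-high median had 0 to 383 CPM of Ldb2, with a median of 218. Conversely, the 3 Nefh-high cells at or above the Nefh-low Schwann median had 1.72 to 14.5 CPM.

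The Lmo genes were far lower than Ldb2 in Nefh-low neurons and of the order of Ldb1 or below it. Lmo3 had 5.22 ± 4.61 CPM in Nefh-high and 0.377 ± 0.581 CPM in Nefh-low sums, with 6 of 9 Nefh-low sums at 0. Its within-litter difference was 1.73 ± 1.29, higher in 8 litters and equal at 0 in 1. Lmo2, a bridging protein best known from blood stem cells and endothelium, had 5.67 ± 2.79 and 3.14 ± 3.68 CPM, a difference of 1.21 ± 1.49 and higher in 6 of 9 litters. Without the cells poor in neuron markers the Lmo2 difference was 2.06 ± 1.24 and the Lmo1 difference 1.19 ± 1.33. Lmo1 had 15.4 ± 8.80 and 12.95 ± 11.5 CPM, and Lmo4 had 13.3 ± 2.95 and 19.7 ± 10.5 CPM, both with overlapping sums and differences of 0.80 ± 1.84 and -0.29 ± 1.14. For comparison, 8.08% of the genes were higher in Nefh-high sums in every litter, and none of the 4 Lmo genes was.

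Per kilobase, Lmo1 stood at 9.91 ± 5.67 CPM in Nefh-high sums, Lmo4 at 3.76 ± 0.835, Lmo2 at 2.62 ± 1.29 and Lmo3 at 1.02 ± 0.898. In Nefh-low sums Lmo1 stood at 8.35 ± 7.44, Lmo4 at 5.57 ± 2.97, Lmo2 at 1.45 ± 1.70 and Lmo3 at 0.0734 ± 0.113. Lmo1 was thus at a level like Ldb1 in Nefh-high neurons, on this scale. Summed over all cells, the counts behind these values were 11877 for Ldb2, 4759 for Ldb1, 1785 for Lmo4, 1602 for Lmo1, 580 for Lmo2 and 459 for Lmo3, so the last 2 are the least precise.

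Reads of overlapping genes can enter these counts, since the sources used here do not give the strand of counting. Ldb1 overlaps Pprc1 on the opposite strand, which had 2485 counts. The span of Ldb2 holds 11 other genes, 9 of them on its own strand, with 1275 counts together against 11877 for Ldb2, the largest being Gm43508 with 245. Lmo3 overlaps the antisense gene A830011K09Rik, with 83 counts.

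Types were cut from single genes, so they are ranges and not proven types. Nefh-high cells were called by the highest of Ret, Ntrk2 and Ntrk3 at 100 CPM or more, and Nefh-low cells by Tafa4 (where it exceeded Calca), Calca and Mrgprd at the same value. Tafa4-positive neurons had the highest Ldb2, neurons with dominant Ret had nearly all the Lmo3, and neurons with dominant Ntrk2 were the ones in which every cell had an Lmo2 count. All type levels are descriptions.

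Tafa4 is a marker of C-fibre low-threshold touch neurons, but the 19 Tafa4-positive cells were not all of that profile. In 5 of them (4 glabrous and 1 hairy) Mrgprd, a receptor of non-peptidergic nociceptors, exceeded Tafa4, with 756 to 2141 CPM against 139.4 to 290.2 CPM. Medians of Th (5.35 CPM) and Slc17a8 (2.68 CPM), other markers of touch neurons, were low in the 19 cells. All 7 listed markers of C-fibre touch neurons, Tafa4 among them, summed to a median of 1602 CPM there (range 433 to 2586). Each of the 7 had a median above 0. Every other type had a lower median sum, although single Calca-positive cells without Mrgprd reached up to 1408 CPM. Tafa4 defines the type and enters this sum. Ldb2 in Tafa4-positive cells had litter sums with a lowest value of 348.2 CPM, a median of 635 and a highest of 690.2, and the mean was 554 ± 143.6 CPM (SD, 8 litters). Every one of these 19 cells had at least 203 CPM of Ldb2. Split after the values were seen, the 14 cells in which Tafa4 was not exceeded by Mrgprd had 563 ± 129.8 CPM (SD, 7 litters) and the 5 others 421 ± 217 CPM (SD, 3 litters). The Calca-positive cells came next, at 215 ± 162 CPM with Mrgprd (4 cells) and 206 ± 153 CPM without it (15 cells), followed by the 8 other Nefh-low cells at 145.8 ± 196 CPM. The Tafa4-positive mean stood above the next type by more than the SDs of both, but single litters overlapped, since the highest Calca-positive sum without Mrgprd had 418 CPM.

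Within the Nefh-high cells Ldb2 was not uniform. Ntrk2-dominant cells, of which 16 of 18 were glabrous, had 40.2 ± 33.9 CPM (SD, 7 litters), with litter values from 1.72 to 87.5 CPM. In 6 of these 18 cells Ldb2 exceeded Ldb1. Ret-dominant cells had 13.1 ± 15.5 CPM (9 litters), other Nefh-high cells 7.61 ± 4.68 (5 litters) and Ntrk3-dominant cells 6.61 ± 10.3 (7 litters). These 4 means did not differ beyond their spread. In Ntrk3-dominant cells 13 of 18 had no Ldb2 count.

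**Figure D2:**
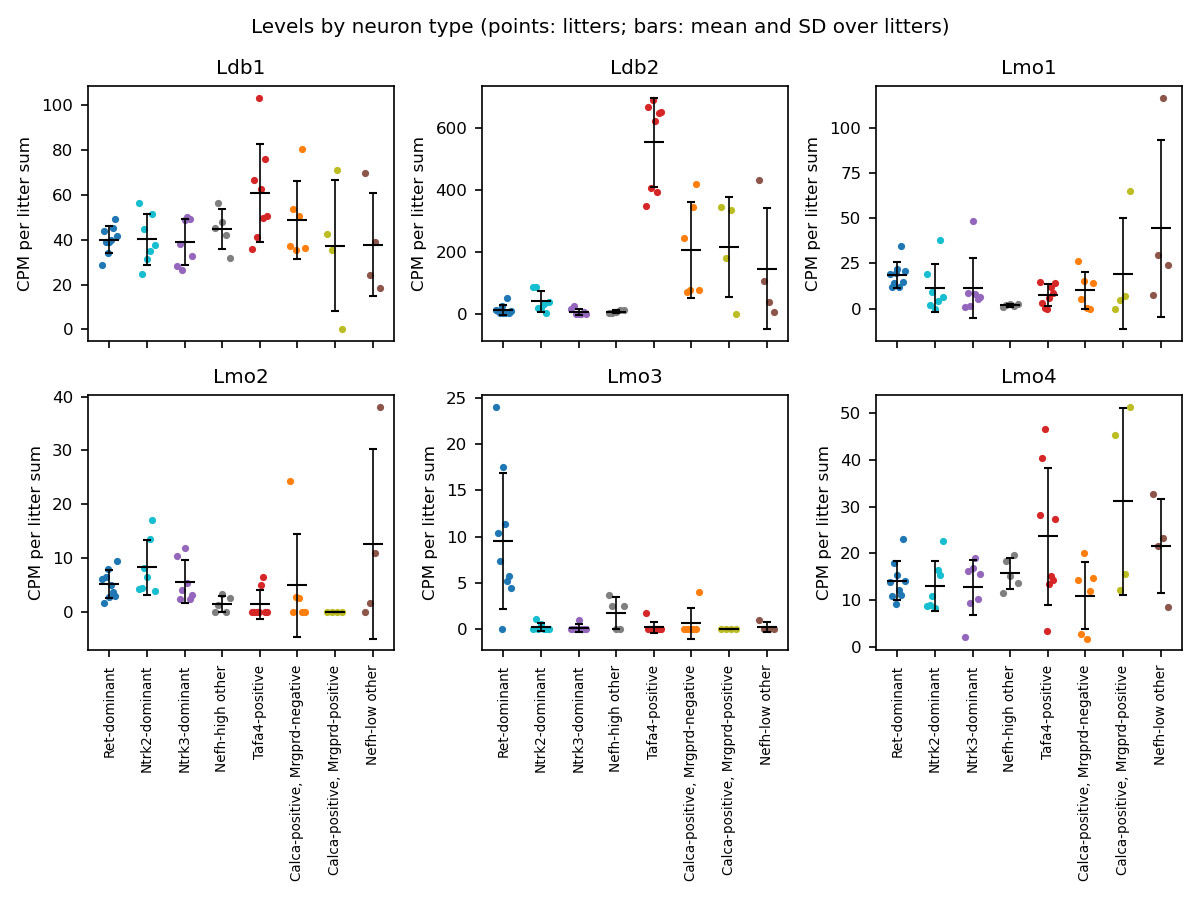
Panels give CPM of each member (y axis, linear, a scale of its own per panel) for 8 neuron types (x axis); points are litter sums and bars are the mean and SD over litters. Ldb2 is highest in Tafa4-positive cells (554 ± 143.6 CPM), Lmo3 in Ret-dominant cells (9.56 ± 7.35 CPM), and Lmo1 is lowest in the other Nefh-high cells (1.88 ± 0.725 CPM).

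Lmo3 counts came mostly from Ret-dominant cells, of which 45 of 55 had one. The litter sums there ran from 0 (litter H) through a median of 7.34 to 24.01 CPM (litter A_B). The mean was 9.56 ± 7.35 CPM (SD, 9 litters). Other Nefh-high cells had 1.77 ± 1.69 CPM, and the remaining 6 types were at 0.680 CPM or less on average, with 6 of 82 cells having a count. The Ret-dominant mean was the highest, but it did not differ from the next beyond the SDs of both, and its litter sums reached down to 0.

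Lmo2 had 8.30 ± 5.14 CPM in Ntrk2-dominant cells, 5.65 ± 3.93 in Ntrk3-dominant and 5.15 ± 2.64 in Ret-dominant cells, and a count in 18 of 18, 15 of 18 and 30 of 55 of those cells. Other Nefh-low cells had a higher mean, 12.7 ± 17.6 CPM, but only 3 of 8 had a count and a single cell of 38.1 CPM set the top. Calca-positive cells without Mrgprd had 4.92 ± 9.58 CPM, Tafa4-positive 1.42 ± 2.67, other Nefh-high 1.42 ± 1.47 and Calca-positive cells with Mrgprd 0 in all 4. No neighbours in that order differed beyond their spread.

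Lmo1 was lowest in the 13 other Nefh-high cells, at 1.88 ± 0.725 CPM (SD, 5 litters). Those cells all had at least 1887 CPM of Calca, the peptide CGRP, a mark of peptidergic nociceptors. Lmo1 stood at 18.7 ± 7.14 CPM in Ret-dominant, 11.4 ± 13.2 in Ntrk2-dominant, 11.3 ± 16.6 in Ntrk3-dominant, 10.3 ± 10.2 in Calca-positive cells without Mrgprd and 7.51 ± 5.94 in Tafa4-positive cells. The highest means, 44.4 ± 49.1 in other Nefh-low cells and 19.3 ± 30.7 in Calca-positive cells with Mrgprd, had SDs above the mean.

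Lmo4, which is widely expressed, lacked a count in 5 of 150 cells. Its type means ran from 10.9 ± 7.22 CPM in Calca-positive cells without Mrgprd to 31.1 ± 20.03 CPM in those with it, with 12.8 ± 5.89 in Ntrk3-dominant, 13.1 ± 5.41 in Ntrk2-dominant, 14.2 ± 4.26 in Ret-dominant, 15.7 ± 3.35 in other Nefh-high, 21.5 ± 10.002 in other Nefh-low and 23.6 ± 14.7 in Tafa4-positive cells. Ldb1 ran from 37.3 ± 29.2 CPM in Calca-positive cells with Mrgprd to 60.7 ± 21.8 CPM in Tafa4-positive cells. Between those lay other Nefh-low (37.8 ± 23.001), Ntrk3-dominant (39.1 ± 10.3), Ret-dominant (40.04 ± 6.08), Ntrk2-dominant (40.1 ± 11.2), other Nefh-high (44.8 ± 9.07) and Calca-positive cells without Mrgprd (48.9 ± 17.4). For Ldb1 and Lmo4 alike, no neighbouring types differed beyond their spread. Without cells under 10000 detected genes, the Calca-positive cells with Mrgprd (3 cells) had 49.7 ± 18.8 CPM of Ldb1, no longer the lowest mean. They then had 287 ± 92.4 CPM of Ldb2, 4.00 ± 3.64 of Lmo1 and 24.4 ± 18.2 of Lmo4.

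Several Lmo genes were often counted in 1 cell. At least 3 of the 4 had a count in 80 Nefh-high and 12 of 46 Nefh-low cells, and all 4 in 26 and 0. Lmo2 and Lmo3 were found together in 30 Nefh-high cells, 25 of them Ret-dominant, and in 0 of 46 Nefh-low cells. That 0 would allow up to 6.52% if cells, which share litters, were independent. Detected genes were also fewer in Nefh-low cells, and counts were not thinned to a common depth, so the part of depth in these shares was not tested.

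Over all neurons Ldb2 was higher in sums of hairy than of glabrous neurons in every litter, while the fitted changes within each Nefh class were smaller. Within the Nefh-high class Lmo2 had the largest change of the 6 members, again higher in hairy neurons in every litter. Neither passed the threshold of edgeR's quasi-likelihood test with litter as a block, and no other member did. Skin type is named in the rule, so these fits describe the members. Adjusted p-values are by Benjamini and Hochberg over all genes tested. They measure how the skin difference varied between litters, except in the interaction of skin and class below.

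In the 7 litters that had 2 or more cells of both skin types, Ldb2 in glabrous sums had its lowest value at 2.16 CPM (litter K), its median at 34.5 (E_F_G) and its highest at 130.2 (H). In hairy sums the lowest was 46.2 CPM (C_D), the median 200.9 (E_F_G) and the highest 469.6 (L). The ranges overlapped between litters, but within each of the 7 litters the hairy sum was higher, which was so for 1.74% of the 12852 genes tested. The log2 change, hairy against glabrous, was 2.96 ± 0.48 (SE), with an adjusted p of 0.0949 by edgeR, and over all genes 12 passed (0.0934%). With DESeq2 the adjusted p was 2.47e-09, where 337 genes passed. Over the 16 alternatives the change ran from 2.16 to 3.57, and it passed in 2. Within plates it was 2.32 (plate 1) and 3.45 (plate 2), and in litter K 4 of 7 glabrous cells were on plate 1 while all 4 hairy cells were on plate 2.

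The classes were not mixed alike in these sums. Nefh-low cells made up 57.8% of hairy cells (26 of 45) and 19.2% of glabrous cells (20 cells), and 13 of the 19 Tafa4-positive cells were hairy. Within Nefh-high cells of 7 litters, Ldb2 had 13.3 ± 11.2 CPM in glabrous and 15.03 ± 18.2 CPM in hairy sums (SD), and hairy was lower in 5 of 7 litters. The log2 change was -0.19 ± 0.71 (SE), adjusted p 0.977 by edgeR, and its sign turned in 4 of 17 alternatives. Within Nefh-low cells of 5 litters, the glabrous sums had 256, 293, 298, 335 and 373 CPM (mean 311 ± 44.6) and the hairy sums 340, 407, 443, 470 and 892 CPM (mean 510 ± 219). The hairy sum was higher in 5 of 5 litters, which 5.92% of the 11055 genes tested there showed as well, and the highest hairy value was a single cell of litter H. The log2 change of 0.59 ± 0.57 (SE) had an adjusted p of 0.995 by edgeR. As the median change of all genes in that fit was 0.56, Ldb2 stood 0.02 above the median gene. That median depended on litter L, whose glabrous sum was a single cell: without this litter it was 0.0078 and the Ldb2 change 0.58, and without cells under 10000 detected genes they were 0.014 and 0.53.

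**Figure D3:**
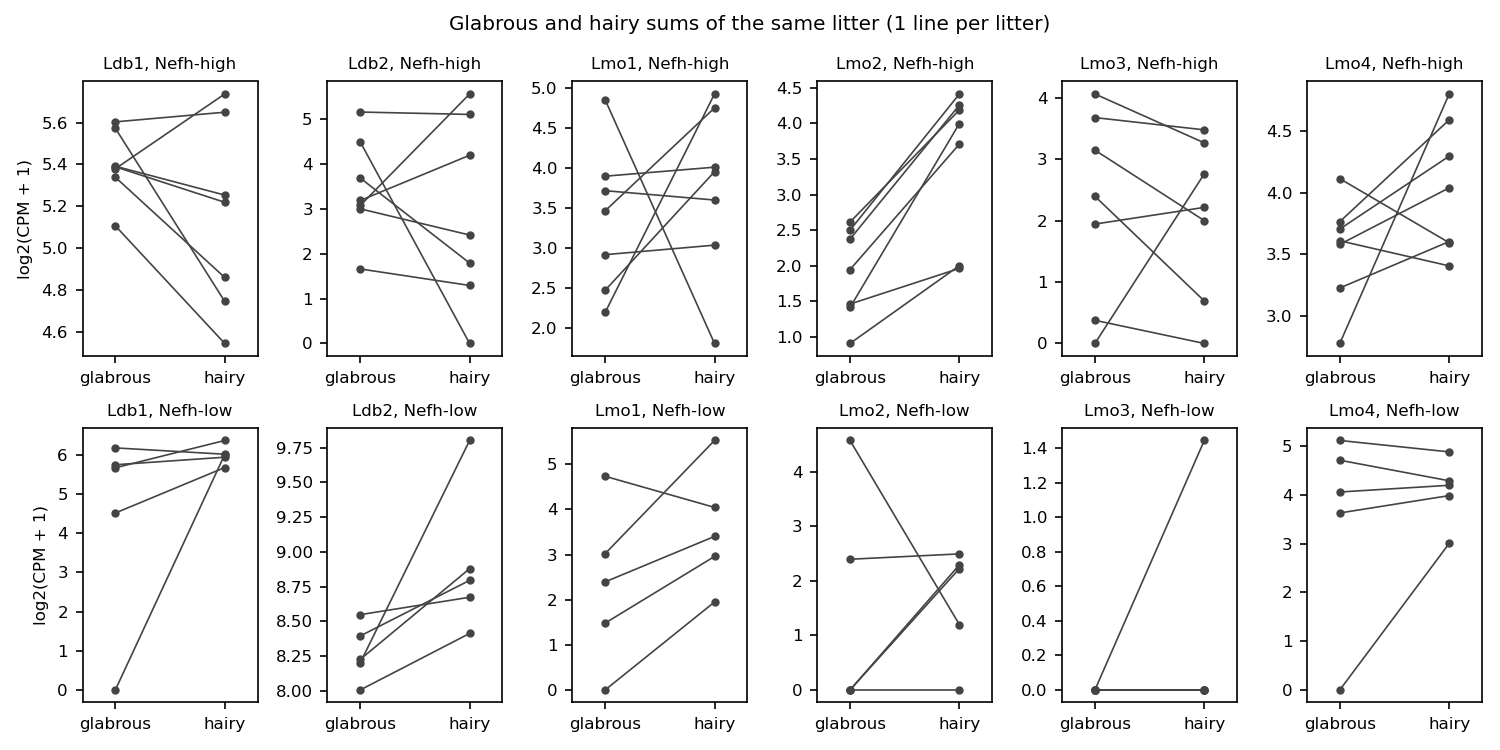
Each line joins the glabrous and the hairy sum of 1 litter; the y axis is log2(CPM + 1) on a scale of its own per panel, with Nefh-high neurons in the top row (7 litters) and Nefh-low neurons in the bottom row (5 litters). Lmo2 in Nefh-high neurons goes up from glabrous to hairy in 7 of 7 litters, while Ldb2 there goes down in 5 of 7.

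In Nefh-high cells the glabrous sums of Lmo2 had a lowest value of 0.874 CPM (C_D), a median of 2.85 (P_Q) and a highest of 5.12 (A_B). The hairy sums had a lowest value of 2.89 CPM (O), a median of 14.98 (K) and a highest of 20.3 (E_F_G). Hairy was higher in 7 of 7 litters, as for 0.587% of 12087 genes, with means of 3.01 ± 1.66 and 12.7 ± 7.12 CPM, and 2 hairy sums (C_D and O) lay within the glabrous range. The log2 change was 2.10 ± 0.34 (SE), with an adjusted p of 0.227 by edgeR, under which 0 genes (0%) passed and 729 had an unadjusted p under 0.05. DESeq2 gave an adjusted p of 1.88e-05 and called 89 genes. Over 15 alternatives the change ran from 1.90 to 2.22 and passed in 2. Within plate 1 it was 2.00, and within plate 2 Lmo2 did not pass the filter on low counts. Hairy sums held 1 to 7 cells and 17 in all, against 61 glabrous cells.

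The type mix of these sums differed too. Of 19 hairy Nefh-high cells 15 were Ret-dominant and 0 Ntrk3-dominant, against 39 and 18 of 84 glabrous cells. Within Ret-dominant cells alone, a comparison added after the values were seen, Lmo2 had 1.76 ± 1.67 CPM in glabrous and 14.9 ± 6.91 CPM in hairy sums (SD, 6 litters), higher in hairy in 5 of 6 litters. In litter C_D it was 1.64 in glabrous and 1.29 in hairy cells. Markers of endothelium, where Lmo2 is also expressed, summed to a median of 4.35 CPM in glabrous (0 to 76.8) and 2.74 CPM in hairy Nefh-high cells (0 to 96.5), and those of macrophages to 4.33 (0 to 135.5) and 4.47 CPM (0 to 21.6). Across single Nefh-high cells Lmo2 and the endothelium sum had a rank correlation of 0.342, a description over cells that share litters, and the part of endothelial RNA in the Lmo2 values was not tested.

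The other members did not pass in either class. In Nefh-high cells the log2 changes were -0.20 ± 0.19 for Ldb1, 0.51 ± 0.65 for Lmo1, -0.28 ± 0.70 for Lmo3 and 0.58 ± 0.34 for Lmo4, with adjusted p from 0.857 to 0.961. In Nefh-low cells they were 1.11 ± 1.13 for Ldb1, 1.45 ± 1.12 for Lmo1 and 0.38 ± 1.01 for Lmo4, each with an adjusted p of 0.995, and Lmo2 and Lmo3 were too low to be tested. Of 11055 genes 0 (0%) passed there by edgeR, 55 had an unadjusted p under 0.05, and DESeq2 called 4, none of them a member. Over all neurons Lmo2 had a change of 1.24 ± 0.49, with an adjusted p of 0.450 and hairy higher in 6 of 7 litters. Ldb1, Lmo1 and Lmo4 had changes of 0.14 ± 0.18, 0.33 ± 0.67 and 0.07 ± 0.27, and Lmo3 did not pass the filter on low counts.

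Whether the skin difference itself differed between classes could be fitted in 3 litters (E_F_G, H and O). The 12 sums of these litters entered as separate units, some of them single cells. The p-values of this fit therefore carry spread within litters and do not measure spread between litters alone. For Ldb2 the change in Nefh-high minus that in Nefh-low cells was -3.08 ± 0.79 (SE), adjusted p 0.976 by edgeR, and for Lmo2 it was 2.95 ± 2.49, also 0.976. Of 12703 genes 0 (0%) passed, with 569 at an unadjusted p under 0.05 and 20 called by DESeq2. In litter H the hairy Nefh-high sum, a single cell, had 0 Ldb2 counts. Without litter H the Ldb2 value was -1.92.

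Levels on days 4 and 5 overlapped for every member in Nefh-high neurons, the class in which the rule did not ask for this contrast. Ldb2 had 1.98 (K) and 12.6 CPM (P_Q) on day 4, and on day 5 a lowest value of 0.758, a median of 13.1 and a highest of 50.2 CPM over 8 litters. Both day 4 values lay inside the day 5 range. The log2 change, day 5 against day 4, was 1.19 ± 0.94 (SE), with an adjusted p of 1.00 by edgeR, and ran from 0.42 to 3.05 over alternatives. Ldb1 had 39.7 and 39.1 CPM on day 4 against 42.04 ± 6.47 on day 5, a change of 0.07 ± 0.19. Lmo1, Lmo2, Lmo3 and Lmo4 had changes of 0.14 ± 0.55, -0.21 ± 0.59, -0.59 ± 0.94 and -0.08 ± 0.28. Of 15366 genes 0 (0%) passed, 284 had an unadjusted p under 0.05, and DESeq2 called 0.

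**Figure D4:**
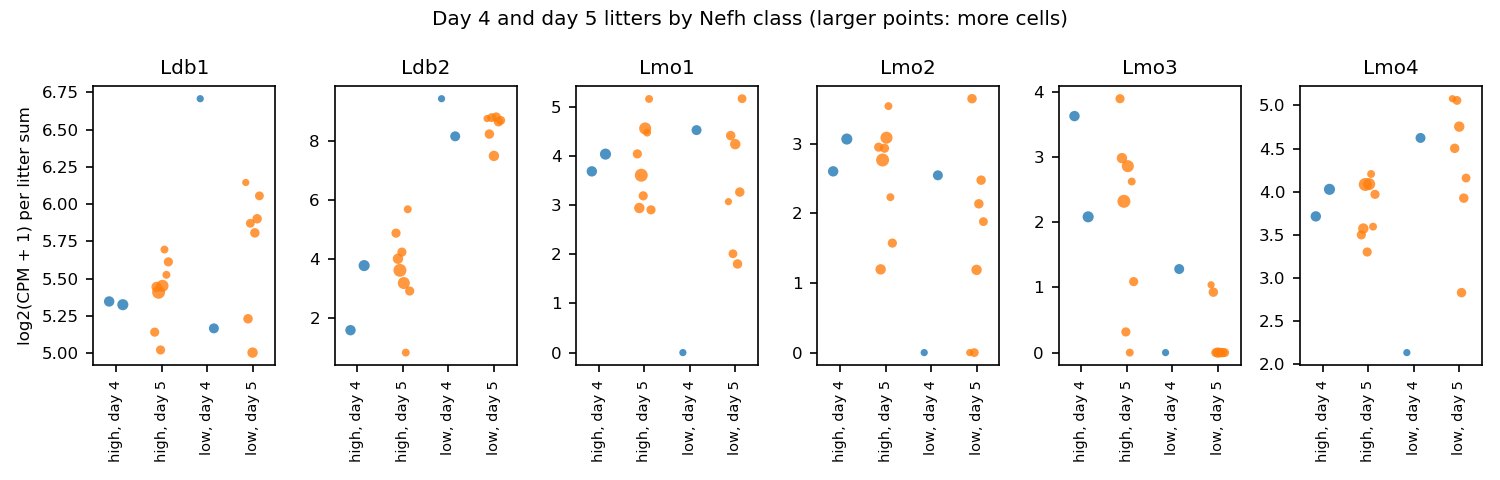
Points are litter sums as log2(CPM + 1) (y axis, a scale of its own per panel) of day 4 (blue) and day 5 (orange) litters in Nefh-high and Nefh-low neurons (x axis), larger for more cells. For Ldb2 in Nefh-high cells both day 4 litters (1.98 and 12.6 CPM) lie within the day 5 range of 0.758 to 50.2 CPM.

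In Nefh-low neurons the contrast is named in the rule and is described only. With at least 2 cells per sum, day 4 was a single litter (P_Q, 8 cells) against 6 litters of day 5, so the lone sum was assumed to vary like the others. Ldb2 had 284 CPM on day 4 and 179, 300, 401, 414, 442 and 448 CPM on day 5, a mean of 364 ± 105.2. Ldb1 had 34.9 CPM on day 4 and 50.7 ± 13.7 CPM on day 5. The day 4 value lay inside the day 5 range for both genes. The fitted changes were 0.26 ± 0.45 for Ldb2, 0.44 ± 0.45 for Ldb1, -0.70 ± 1.11 for Lmo1, -0.40 ± 1.54 for Lmo2 and -0.36 ± 0.72 for Lmo4, and the median gene had 0.12. When sums of a single cell were kept too, which added litter K to day 4 and litter A_B to day 5, the sign of all 5 turned. Age differs between litters only, and the part of litter in these values cannot be told apart from age. Of 16488 genes 0 (0%) passed by edgeR, 605 had an unadjusted p under 0.05, and DESeq2 called 8. The difference of the age change between classes was -0.26 ± 1.15 for Ldb2 (adjusted p 1.00 by edgeR), with 0 of 17108 genes (0%) past the threshold, 401 at an unadjusted p under 0.05 and 3 called by DESeq2.

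Among the genes of proteins that work with these cofactors, Isl2 and Ssbp3 were higher in Nefh-low neurons in every litter, while others were on the Nefh-high side. Of 32 genes in 4 lists (LIM-homeodomain factors, regulators of Ldb stability, bHLH and GATA partners, and further Lmo4 partners), only 12 reached a mean of 5 CPM: Isl1, Isl2, Ssbp2, Ssbp3, Ssbp4, Rlim, Rnf6, Tcf3, Tcf4, Tcf12, Deaf1 and Rbbp8. Isl2 had 164 ± 37.9 CPM in Nefh-high and 357 ± 85.5 CPM in Nefh-low sums, a difference of -1.15 ± 0.48 (SD), lower in Nefh-high cells in 9 of 9 litters. Ssbp3, a protector of Ldb, had 42.5 ± 5.64 and 85.7 ± 15.6 CPM, a difference of -0.95 ± 0.29 and also lower in 9 of 9. Of 15601 genes, 3.88% were lower in every litter. Isl1 differed less, with 191 ± 50.5 and 150 ± 37.1 CPM and a difference of 0.33 ± 0.51, and Ssbp2 had a difference of -0.57 ± 0.46, lower in 8 of 9 litters. Also on the Nefh-low side were Rlim (-0.41 ± 0.40), Tcf3 (-0.42 ± 0.75), Tcf4 (-0.40 ± 1.41) and Tcf12 (-0.091 ± 1.21). On the Nefh-high side were Ssbp4 (0.37 ± 0.57), Rnf6 (0.22 ± 0.34), Deaf1 (0.15 ± 0.40) and Rbbp8 (0.43 ± 1.21). The other 10 LIM-homeodomain genes had means of at most 0.353 CPM over all cells.

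**Figure D5:**
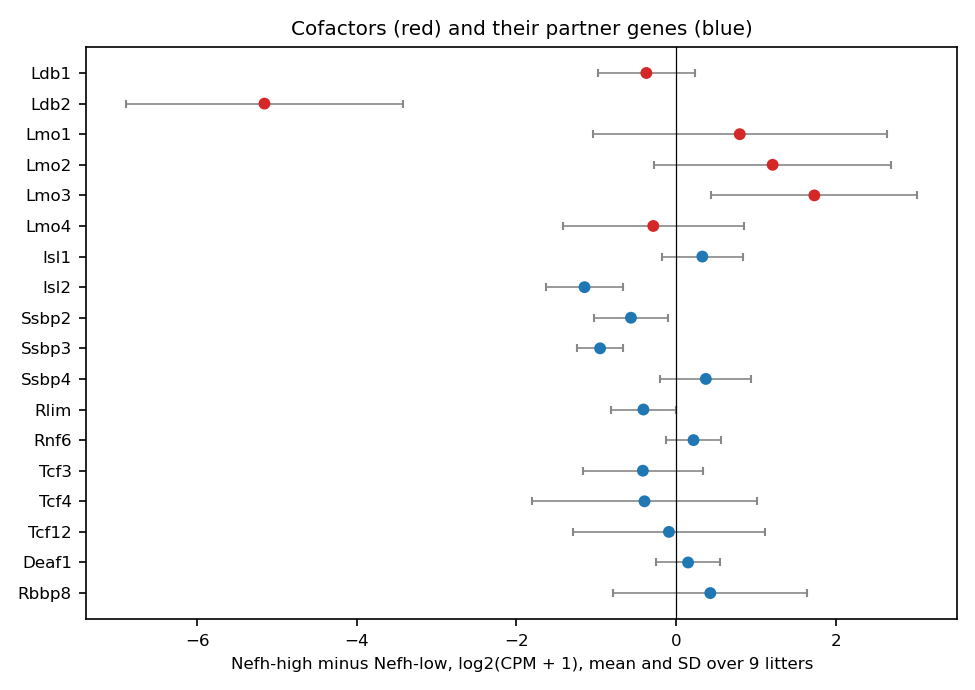
The x axis is the within-litter difference of log2(CPM + 1), Nefh-high minus Nefh-low, as mean (points) and SD (bars) over 9 litters for the 6 cofactors (red) and 12 partner genes (blue). Ldb2 stands at -5.16, and among the partners Isl2 (-1.15) and Ssbp3 (-0.95) lie furthest on the Nefh-low side.

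No gene of the 4 lists passed in any skin or age comparison. Over all neurons 13 of the 32 were tested for skin type, and Tcf4 (0.54 ± 0.23, adjusted p 0.488 by edgeR) and Ssbp2 (0.29 ± 0.13, adjusted p 0.510) had the smallest p-values. In Nefh-high cells the medians of the 4 lists ran from -0.10 to 0.07, where the median of all 12087 genes was -0.03.

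By rank correlation over the 150 cells, among 11862 genes with a mean of at least 5 CPM and a count in at least 20% of cells, Ldb2 was most like Celf6 (rho 0.808), Rnase4 (0.782) and Cd24a (0.774). Ldb1 was most like Gpr27 (0.553), Lmo1 like Metrnl (0.486), Lmo2 like Ptpre (0.578) and Lmo4 like Pkig (0.453). Members counted in fewer than 50% of cells were left out, which held for Lmo3 with a count in 57 of 150 cells. Outside that rule, and named after its values were seen, its most similar gene was Ces2g (0.733). The cells share litters and types, the values for Ldb1, Lmo1, Lmo2 and Lmo4 are weak in sparse counts, and all are descriptions. Within the 46 Nefh-low cells Ldb1 and Ldb2 had a rho of 0.565, and within the Nefh-high cells one of 0.111.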

How the data were processed

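Smart-seq libraries of polyA RNA were made with Nextera XT from single neurons, per the labels' protocols. FastQC, cutadapt, Salmon and mm10 were used, per the submitters' processing notes, while the sources used here do not give their versions, the annotation or the strand setting. The deposited values are expected counts (Salmon estimates) in whole numbers, not normalized, for 54082 genes, of which 19341 had no count. CPM were computed here on raw totals. Levels are sums per litter, since the litter is the replicate, and litters pair the skin types because the labels give a shared litter and age, although litter K spans both plates and litters I and K span cDNA batches. After centring, glabrous and hairy sums of a litter correlated between -0.083 and 0.281, and for 3 of 7 hairy sums the highest correlation was with the same litter. Sums were tested with edgeR 4.0.16 (R 4.3.3): TMM, filterByExpr by group (chosen after the output of a filter from the design matrix had been seen), quasi-likelihood F-test, litter as a block for skin type and interactions, Benjamini-Hochberg threshold 0.05. The SE is the log2 change divided by the square root of F. Sums needed at least 2 cells over all neurons and for age, and 1 for skin type within a class. The cell with both skin labels was left out of skin comparisons. The alternatives were DESeq2 1.42.0, RLE factors, no expression filter, other Nefh and type thresholds, plates, and leaving out litters or shallow cells. Procedures were tested on simulated data. The members, the gene lists and the named genes' rule (all 6 members, partner genes with a mean of at least 5 CPM or the 2 smallest p-values, and the 3 most similar genes per member counted in most cells, of which the first was given except for Ldb2) were chosen with earlier results of these data known.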

Additional observations from a re-analysis of the deposited data

Results flagged for a closer look

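In 47 groups of 4 to 10 litter sums, 7 held a sum that stood apart from the others by Dixon's criterion at the 95% level. For normal values chance marks about 1 group in 20. CPM sums of few cells, some of them at 0, need not be normal, so that rate is no reference for the 7. Lmo2 in Nefh-low sums was 11.5 CPM in litter E_F_G, with the next at 4.83 CPM, and in glabrous Nefh-low sums it was 22.8 CPM in the same litter, with the next at 4.26 CPM. In that litter, Lmo1 in glabrous Nefh-low sums was 25.6 CPM (next 7.11), and Lmo3 in hairy Nefh-low sums was 1.72 CPM where the other 4 were at 0. With those at 0, any count of Lmo3 would have been marked. Ldb2 in hairy Nefh-low sums was 892 CPM in litter H, a single cell, with the next at 469.6 CPM. Lmo1 in glabrous Nefh-high sums was 27.8 CPM in litter P_Q, with the next at 13.9 CPM. Lmo3 in hairy sums over all neurons was 7.90 CPM in litter K, with the next at 3.00 CPM. These groups share cells, so they are not independent.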

How the results depend on the processing

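The lower Ldb2 level and Ldb2 to Ldb1 ratio of Nefh-high neurons, and the differences of the 4 Lmo genes and Ldb1, moved by less than 1 SD over litters in every setting run. Counts of called genes depended on the tool and the filter. For skin type over all neurons 12 genes passed, against 337 with DESeq2, 342 without an expression filter, 0 within plate 1, 0 within plate 2, 1 with at least 1 cell per sum, and 0 to 15 without each litter in turn (0 without K, O or P_Q, 1 without L, 2 without E_F_G and 7 without H). In Nefh-high neurons it was 0, against 89 with DESeq2, 226 without a filter, 2 with the filter from the design matrix, which was used first and gave 16 over all neurons (the filter by group, with 12 and 0, was chosen after its output had been seen), and 0 to 2 without each litter. Without the litter as a block for pairing, 7 genes passed in Nefh-high neurons and 1 for the interaction of skin and class (0 with the block). DESeq2 called 4 genes in Nefh-low neurons, 20 for that interaction, 8 for age in Nefh-low neurons and 3 for the age interaction. Without a filter these were 198, 3 and 66 for the last 3. Day 4 against day 5 in Nefh-high neurons gave 1 on plate 2.

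Of the members, those that passed in an alternative were Ldb2 over all neurons and Lmo2 in Nefh-high neurons (DESeq2 and no filter) and the Ldb2 interaction of skin and class (no filter). Reversals were among changes that did not pass. Skin type over all neurons within plates gave -0.60 for Lmo1 (plate 2) and -0.075 for Lmo4 (plate 1), and without single litters -0.11 to 0.77 and -0.074 to 0.25. In Nefh-high neurons plate 2 gave 0.0086 for Ldb1, 0.28 for Ldb2, -0.96 for Lmo1 and 0.82 for Lmo3. Ldb2 there was 0.30 without the litter block and -0.77 to 0.28 without single litters, and Lmo3 -0.75 to 0.026. Lmo4 in Nefh-low neurons was -0.10 without shallow cells, -0.10 without the block, -0.48 within plate 1 and -0.10 to 0.73 without single litters. With Nefh at 1000 CPM the Lmo1 interaction with skin was -1.03. For age in Nefh-low neurons, at least 1 cell per sum gave -0.32 for Ldb1, -0.36 for Ldb2, 0.053 for Lmo1, 0.15 for Lmo2 and 0.44 for Lmo4, and no shallow cells 0.068 for Lmo4. For age in Nefh-high neurons, glabrous cells alone gave -0.78 for Lmo1, 1.08 for Lmo2 and 0.11 for Lmo4, Nefh at 1000 CPM -0.10 for Lmo1, and at 300 CPM 0.013 for Lmo4. Without single litters the ranges were -0.10 to 0.33 for Lmo1, -0.44 to 0.063 for Lmo2, -1.24 to 0.60 for Lmo3 and -0.22 to 0.084 for Lmo4. The age interaction gave 0.88 (Nefh at 300 CPM) and 0.41 (1000 CPM) for Ldb2, -0.80 (1000 CPM) for Lmo2 and -0.094 (no shallow cells) for Lmo4, and without single litters -0.67 to 0.066 for Ldb2 and -0.0056 to 1.04 for Lmo2. The type threshold changed which cells the other Nefh-high type held: 13 at 100 CPM, 1 at 50 CPM and 23 at 200 CPM. The single cell at 50 CPM had 35.6 CPM of Ldb1, 1.23 of Ldb2, 3.68 of Lmo3 and 7.36 of Lmo4. At 200 CPM the type had 7.16 CPM of Lmo1 and 5.04 of Lmo2. Lmo3 in Ntrk3-dominant cells was 1.16 CPM at 50 CPM. The causes were not tested.

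The interaction of skin and class within plate 2, age in Nefh-low neurons in glabrous cells alone, and both age fits with Nefh-low cells without litter P_Q could not be fitted. Hairy sums within a class held few cells, Lmo2 and Lmo3 had few counts, and in Nefh-low neurons only 1 litter of day 4 had 2 or more cells.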
